A study of Mus musculus with 28 samples.

Results

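Transcripts of 46 chaperone genes were followed in 4 tissues of aged (24 months) and younger adult (6 months) females of C57BL/6J, a common inbred mouse strain. The members were taken from a fixed list of heat shock proteins and their helpers: 8 genes of HSP90 and its co-chaperones, 11 of HSP70, HSP110 and their partners, 7 small heat shock proteins, 9 J-domain proteins, 4 subunits of the chaperonin TRiC, 2 heat shock transcription factors and 5 chaperones of mitochondria. The list was named for cytosolic chaperones, a name that the 5 mitochondrial genes Hspa9, Hspd1, Hspe1, Dnaja3 and Trap1 go beyond. Of the 46 genes, 43 had a value among the 19928 genes measured in liver and quadriceps, and 42 among the 30063 measured in heart and gastrocnemius. No value could be given in any tissue for Hsp90ab1, Hspa1b and Hsf1, and none in heart and gastrocnemius for Dnaja1. The probe set that names Hspa1b also names its near-identical neighbour Hspa1a and was not used. Values of Hspa1a come from another probe set that names it alone, whose signal may still include Hspa1b.

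Mice were 103 weeks old (24 months) or 24 weeks old (6 months), were housed in groups on chow, and were killed after a night without food. There were 3 arrays at each age for liver and for quadriceps (thigh muscle), and 4 at each age, of a different array type, for heart and for gastrocnemius (calf muscle), or 28 arrays in all. Whether arrays of a group came from separate animals, and whether arrays of different tissues with the same number came from the same animal, is not stated in the labels. The p-values therefore rest on the spread of the samples at hand, which may be technical. Values are log2 intensities as deposited by the authors, and 1 unit of difference stands for a ratio of 2. Array values are listed in the order of the replicate numbers, which carry no other order.

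Chaperones bind unfolded or partly folded proteins and either hold them or help them fold. HSP70 works with J-domain proteins, which deliver its clients, and with exchange factors such as HSP110 and Bag3; HSP90 finishes the folding of kinases and receptors with co-chaperones such as Stip1, Ahsa1 and Fkbp4; small heat shock proteins hold clients without ATP and are abundant in muscle; TRiC folds actin and tubulin. Heat and other protein damage free the transcription factor Hsf1, which binds heat shock elements and raises Hspa1a, Hsph1, Dnajb1 and other inducible members.

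The labelled tissues carried their own transcripts. The mean of 8 hepatocyte genes was 13.59 to 13.67 over the liver arrays. Skeletal muscle genes (8 of them) averaged 13.53 to 13.63 over quadriceps arrays and 13.01 to 13.18 over gastrocnemius arrays, and 7 cardiomyocyte genes averaged 11.92 to 12.10 over heart arrays. Some arrays stood apart in genes of other cells. Exocrine pancreas genes averaged 9.28 in 24-month liver replicate 2, against 5.84 to 6.28 in the other liver arrays. Hepatocyte genes averaged 8.58 in 24-month quadriceps replicate 1, against 6.07 to 7.20 in the other quadriceps arrays. Atrial genes ranged from 7.19 to 9.61 over the heart arrays. In muscle the genes of slow and oxidative fibres varied widely between arrays, and their values are given beside some of the members they moved with. The part of these differences in the members' values was not tested.

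The arrays numbered 3 at 6 months were high in Hspa1a, the main heat-inducible HSP70, in every tissue. In liver Hspa1a read 6.42, 6.91 and 6.71 at 24 months, against 7.14, 7.21 and 8.64 at 6 months. In quadriceps it read 7.64, 7.77 and 7.44 at 24 months, against 7.59, 7.79 and 10.10 at 6 months. The third 6-month array thus stood 1.47 above the mean of the others of its group in liver and 2.41 above it in quadriceps. In heart Hspa1a read 6.07, 6.36, 5.98 and 6.09 at 24 months, against 5.86, 6.01, 7.05 and 6.17 at 6 months. In gastrocnemius it read 6.77, 6.41, 6.42 and 6.05 at 24 months, against 6.08, 6.20, 6.46 and 6.01 at 6 months. The 2 ages overlapped in quadriceps, heart and gastrocnemius, and in liver every 24-month array lay below every 6-month array. Over all arrays of a tissue Hspa1a had the widest range of any member in liver (2.22), quadriceps (2.66) and heart (1.19), and the second widest in gastrocnemius (0.76). Because the arrays numbered 3 were singled out by Hspa1a itself, these values and those of the members that moved with it are a description, with no test.

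**Figure D1:**
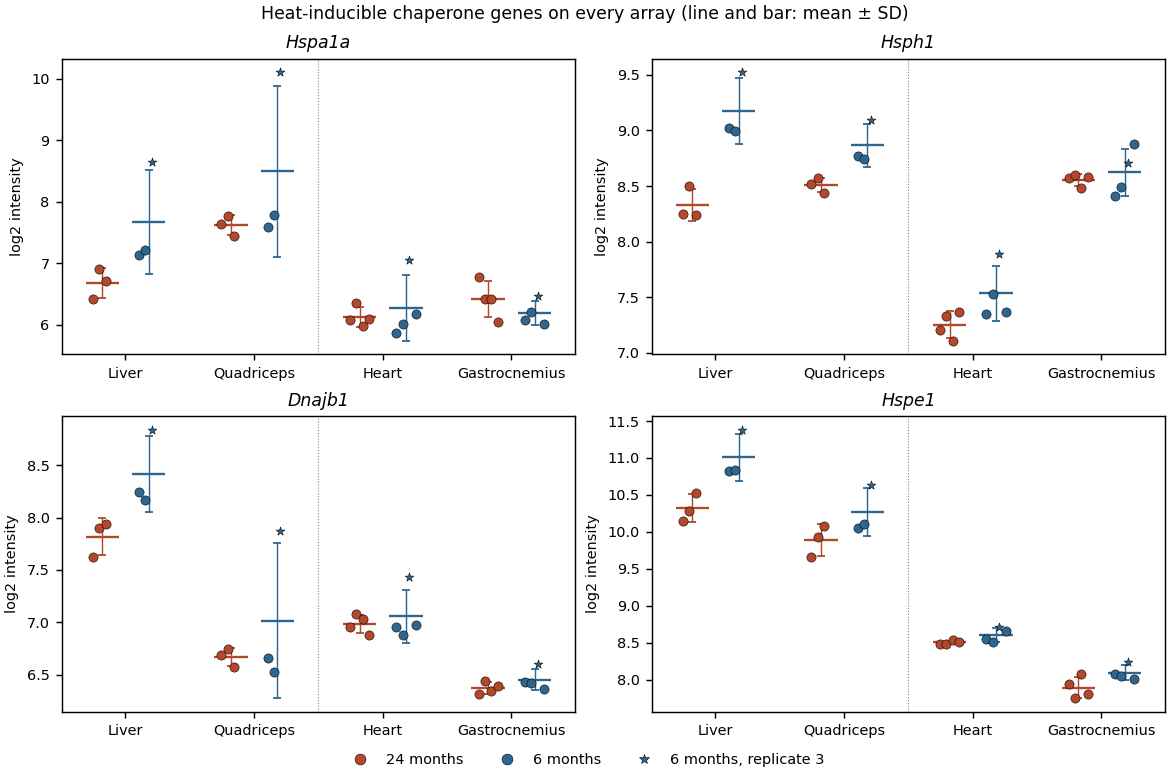
Log2 intensity (vertical axes) of 4 heat-inducible members on every array of each tissue (horizontal axes), with 24 months left of 6 months in each tissue. Lines are group means, bars are SD, and stars are the 6-month arrays numbered 3. The star is the highest of the 6-month values in every panel and tissue except Hsph1 in gastrocnemius, where replicate 4 reads 8.88 and replicate 3 reads 8.71. Tissues left and right of the dotted line were measured on different array types.

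Other members stood high on the same arrays. The 6-month array numbered 3 had the highest value of its group for 32 of 43 members in liver and 25 of 43 in quadriceps, and for 19 of 42 in heart and 23 of 42 in gastrocnemius. Over all genes that array was the highest for 34.1%, 35.1%, 28.1% and 24.0% in liver, quadriceps, heart and gastrocnemius. In all 4 tissues it was the highest for 10 members: the HSP70 genes Hspa1a, Hspa1l and Hspa4l, the J-domain genes Dnaja4, Dnajb1 and Dnajb2, the small heat shock genes Hspb1 and Hspb2, the HSP90 activator Ahsa1 and the mitochondrial co-chaperonin Hspe1. Hspa1a is 1 of these by the choice of the arrays. The share of all genes that were the highest on that array in all 4 tissues was not counted. Of the other array numbers that all 4 tissues have, which are 1 and 2 at 6 months and 1 to 3 at 24 months, only the 24-month arrays numbered 3 were the highest in all 4 for any member, and that was Hspe1. Members that stood more than 0.3 above the mean of the rest of their group on that array numbered 10 in liver, 15 in quadriceps, 4 in heart and 5 in gastrocnemius, where 3.5%, 4.92%, 1.83% and 2.55% of all genes did. Dnajb1, which delivers clients to HSP70, was among them in liver, quadriceps and heart: at 6 months it read 8.25, 8.17 and 8.84 in liver, 6.66, 6.52 and 7.87 in quadriceps, and 6.95, 6.88, 7.43 and 6.97 in heart. Counts of this size were also found on other arrays. At 24 months, heart replicate 4 was the highest for 26 of 42 members (23.1% of all genes) and liver replicate 3 for 24 of 43 (33.9%). Members more than 0.3 above the rest numbered 5 on 24-month quadriceps replicate 2 (3.65% of all genes). They numbered 4 on 24-month gastrocnemius replicate 1 (4.85%) and 4 on 24-month liver replicate 3 (5.95%).

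**Figure D2:**
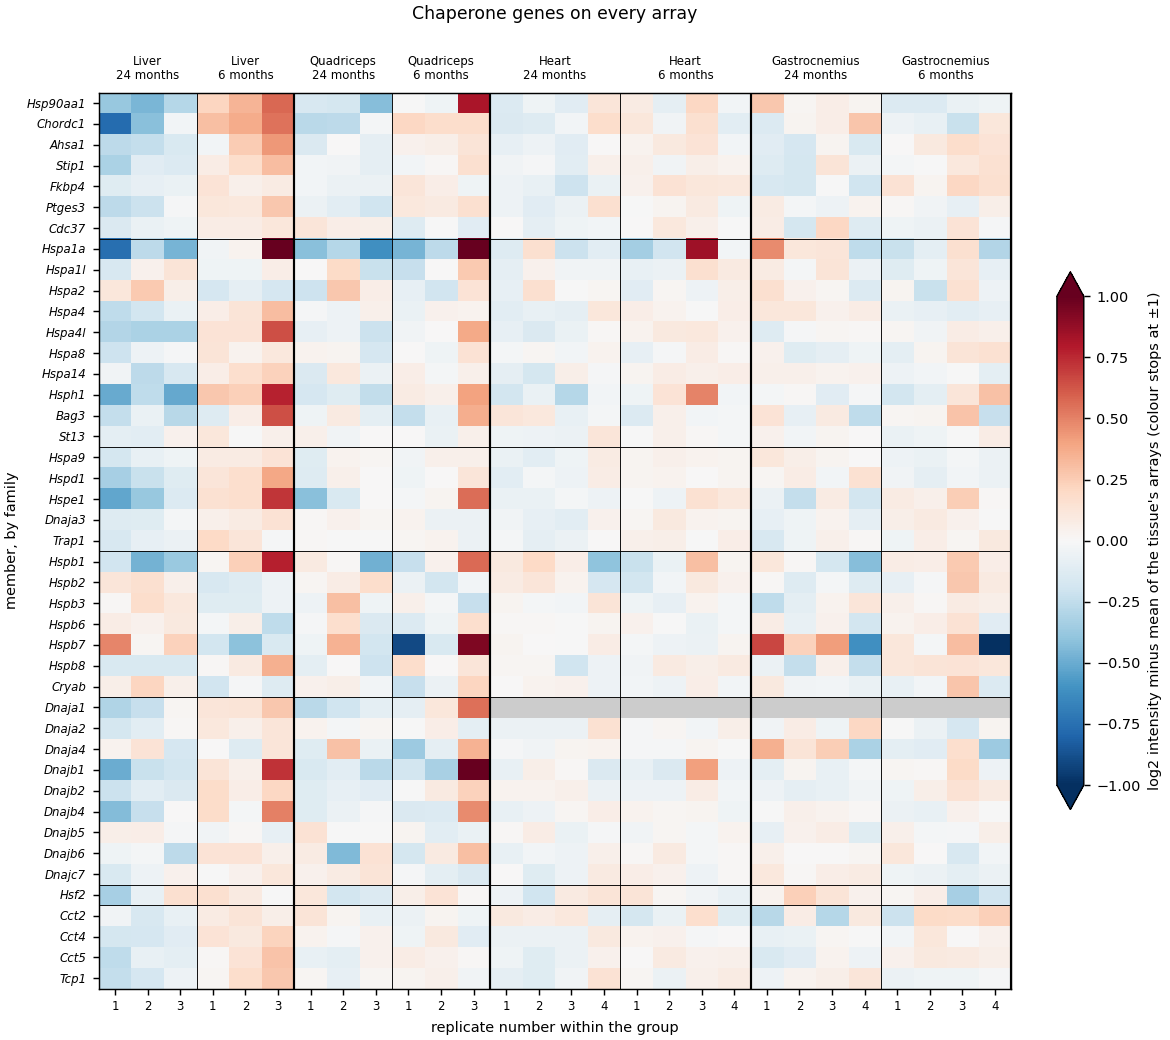
Each member (rows, grouped by family) on each array (columns, replicate numbers along the bottom, 24 months left of 6 months within each tissue), as log2 intensity minus the mean over that tissue's arrays. Red is above and blue below that mean, colours stop at 1 in either direction, and grey marks Dnaja1, which has no value on the second array type. The red columns are the 6-month arrays numbered 3 of liver and quadriceps, most of all for Hspa1a, where the quadriceps array reads 10.10.

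Several of the members standing high on those arrays are known heat-inducible genes, so the promoters were searched for the element that heat shock factors bind, and those that hold it are shown. Sequences of 250 bases before to 50 bases after each start site were matched for 37 of the 46 members (RefSeq, build GRCm38.p6). The motif searched was 3 heat shock units in alternating orientation, GAA then TTC then GAA or TTC then GAA then TTC, with NN (any 2 bases) between units, on either strand and with exact letters. It occurred in 5 of the 37 members, or 13.5%, and in 0.662% of all 27025 genes with a window: Hspd1, Hspe1, Dnajb6, Chordc1 and Hsph1. Of the 10 members highest on the 6-month arrays numbered 3 in all 4 tissues, only Hspe1 held the motif, and Hspb2 had no window. Hspd1 and Hsph1 were the highest there in 3 tissues, and Chordc1 in liver and heart. Dnajb6 was the highest there in quadriceps (6.46) and the lowest in liver, heart and gastrocnemius (6.66, 7.47 and 7.67). Hspd1 and Hspe1, which encode the mitochondrial chaperonin and its lid, lie head to head on chromosome 1, and their windows hold the same overlapping matches read from opposite strands. In the following upstream stretches, written 5′ to 3′ in the direction of the gene, capitals mark the matched element.
Hspd1 (chr1:55088034-55088101, minus strand): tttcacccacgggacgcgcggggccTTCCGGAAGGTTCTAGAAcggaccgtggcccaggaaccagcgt
Hspe1 (chr1:55088034-55088101, plus strand): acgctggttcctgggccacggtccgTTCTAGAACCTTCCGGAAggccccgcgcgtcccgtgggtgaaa
Dnajb6 (chr5:29735827-29735889, plus strand): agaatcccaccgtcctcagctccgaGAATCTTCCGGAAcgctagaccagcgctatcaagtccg
At Hsph1 and Chordc1 the matches lay at or past the annotated start, and only the element is shown.
Hsph1 (chr5:149636287-149636302, minus strand): gaTTCTGGAAAGTTCt
Chordc1 (chr9:18292261-18292287, plus strand): cgGAACGTTCGGGAAAATTCCTGAAgc
The window of Hspa1a held no such match. A shorter form of 2 units, GAANNTTC or TTCNNGAA, was searched after these counts were seen; it is contained in the longer motif and occurred in 19 of the 37 members, or 51.4%, and in 17.0% of all genes. Hspa1a has 1 such match upstream of its start, in capitals.
Hspa1a (chr17:34972228-34972285, minus strand): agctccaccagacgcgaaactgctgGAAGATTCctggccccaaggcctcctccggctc
These matches are letters in a window, and binding was not measured here.

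The first age comparison asked how the members differed between 24 and 6 months in liver. Hsp90aa1, the stress-inducible cytosolic HSP90, fell to 10.00, 9.92 and 10.09 at 24 months, against 10.59, 10.72 and 10.95 at 6 months. Its 24-month level was 0.595 times that at 6 months, a log2 difference of -0.75 with a standard error of 0.11. It was the single member of 43 past the threshold of 0.05 (adjusted p = 0.0493, limma with Benjamini-Hochberg adjustment over all genes), where 0.326% of all genes passed, 0.186% as lower at 24 months. The 3 probe sets that carry its name gave differences of -0.75, -0.73 and -0.72. Its adjusted p was 0.162 without 6-month replicate 3 (difference -0.65) and 0.0573 after quantile normalization, so the call did not hold there.

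Most other members also had lower values at 24 months in liver without passing that threshold. Hsph1, the HSP110 exchange factor, read 8.25, 8.50 and 8.24 at 24 months, against 9.02, 8.99 and 9.52 at 6 months (difference -0.85, adjusted p = 0.0543). Hspa4l, a second HSP110 gene, read 7.21, 7.19 and 7.19 at 24 months, against 7.64, 7.64 and 8.15 at 6 months (difference -0.61, adjusted p = 0.0543). Chordc1, an HSP90 co-chaperone, read 7.46, 7.81 and 8.20 at 24 months, against 8.53, 8.60 and 8.77 at 6 months (difference -0.81, adjusted p = 0.0543). In each of these the ages did not overlap, which leaving out the third 6-month array could not change. The ages did not overlap either for the chaperonin pair whose shared promoter is printed above. Hspd1 read 10.53, 10.64 and 10.74 at 24 months, against 10.98, 11.03 and 11.25 at 6 months (difference -0.45, adjusted p = 0.0543), and Hspe1 read 10.15, 10.29 and 10.53 at 24 months, against 10.82, 10.84 and 11.38 at 6 months (difference -0.69, adjusted p = 0.0569). A second probe set of each gave differences of -0.56 and -0.62.

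By family, the differences in liver were below 0 for all 7 measured HSP90 members (median -0.37), all 5 mitochondrial chaperones (median -0.20), all 4 TRiC subunits (median -0.30), 8 of 10 HSP70 members (median -0.32) and 7 of 9 J-domain members (median -0.22). Small heat shock genes went the other way in 5 of 7. Hspb7, a small heat shock protein of heart and muscle, read 6.61, 6.14 and 6.35 at 24 months, against 5.94, 5.71 and 5.97 at 6 months (difference 0.49, adjusted p = 0.0616). Hspb2, Hspb3 and Cryab differed by 0.22, 0.20 and 0.22 and Hspb6 by 0.15, while the heat-inducible Hspb1 differed by -0.69 and Hspb8 by -0.30. All 8 skeletal muscle markers also had higher values in liver at 24 months. Their mean was 5.86 to 6.09 at 24 months, against 5.66 to 5.73 at 6 months. These markers were dim in liver (means 4.60 to 6.98). All 8 cardiomyocyte and all 10 exocrine pancreas genes were higher there too, and 45.1% of all genes were lower. After quantile normalization Hspb7, Hspb2, Hspb3, Cryab and Hspb6 differed by 0.34, 0.11, 0.03, 0.26 and 0.25. The part of the muscle gene difference in the small heat shock values was not tested.

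Over all 43 members in liver, 34 differences were below 0 and the median was -0.29, with 0.03 as the median over all genes. The arrays of the 2 ages did not overlap for 29 members that were lower at 24 months and 5 that were higher, where 17.4% and 18.7% of all genes showed this. Liver genes of like level were lower too. Among the 5968 genes whose mean lay between the members' quartiles of level, 7.42 and 9.99, 77.9% had lower values at 24 months, as did 79.1% of the members; their median was -0.13, and 37.8% of them lay wholly below the 6-month arrays. The share of lower members was therefore near that of genes of like level, and the array spread moved with age as well, with interquartile ranges of 2.27 to 2.54 at 24 months, against 2.64 to 2.70 at 6 months. The part of that spread in the differences was not tested.

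Hspa8, the constitutive HSP70 gene, had a smaller difference than its inducible relative Hspa1a, which was not tested against it. In liver it read 12.89, 13.05 and 13.09 at 24 months, against 13.23, 13.13 and 13.20 at 6 months, without overlap (difference -0.18, adjusted p = 0.175). Its differences in quadriceps, heart and gastrocnemius were -0.07, 0.00 and -0.10. On both array types several probe sets carry its name and gave similar levels, with means of 13.10, 13.13 and 13.04 in liver. They may read near-identical copies of the gene, and which copy the chosen probe set reads was not checked, so its values are uncertain.

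Leaving the third 6-month array out in liver gave 34 lower members and a median of -0.22. The counts of non-overlapping members stayed at 29 and 5, where 21.2% and 23.0% of all genes did not overlap. Such counts cannot fall when an array is left out. No member and no gene passed the threshold in limma without the third 6-month array. At an unadjusted p under 0.05 in limma there were 21 lower and 4 higher members without it (9.73% and 13.5% of all genes). With all arrays there were 28 lower and 5 higher (14.4% and 18.4%). The difference of Hspa1a shrank most, which the choice of that array by Hspa1a built in. It went from -0.98 with all arrays to -0.49 without the third array (adjusted p = 0.0977 and 0.162 in limma). Bag3, an exchange factor of HSP70, differed by -0.39 with all arrays and by -0.16 without it, and Hspb1 by -0.69 and -0.47. The count of called members depended more on a 24-month array: without 24-month replicate 3, 19 members passed, 17 of them lower, where 25.5% of all genes passed. It was 0 without any 1 of the other 5 liver arrays. It was also 18 or 19 when arrays were centred on their median (9.84% of all genes called), when dim genes were left out (17.0%), with an intensity trend and robust prior (11.3%) and in a joint fit with quadriceps (18.2%).

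**Figure D3:**
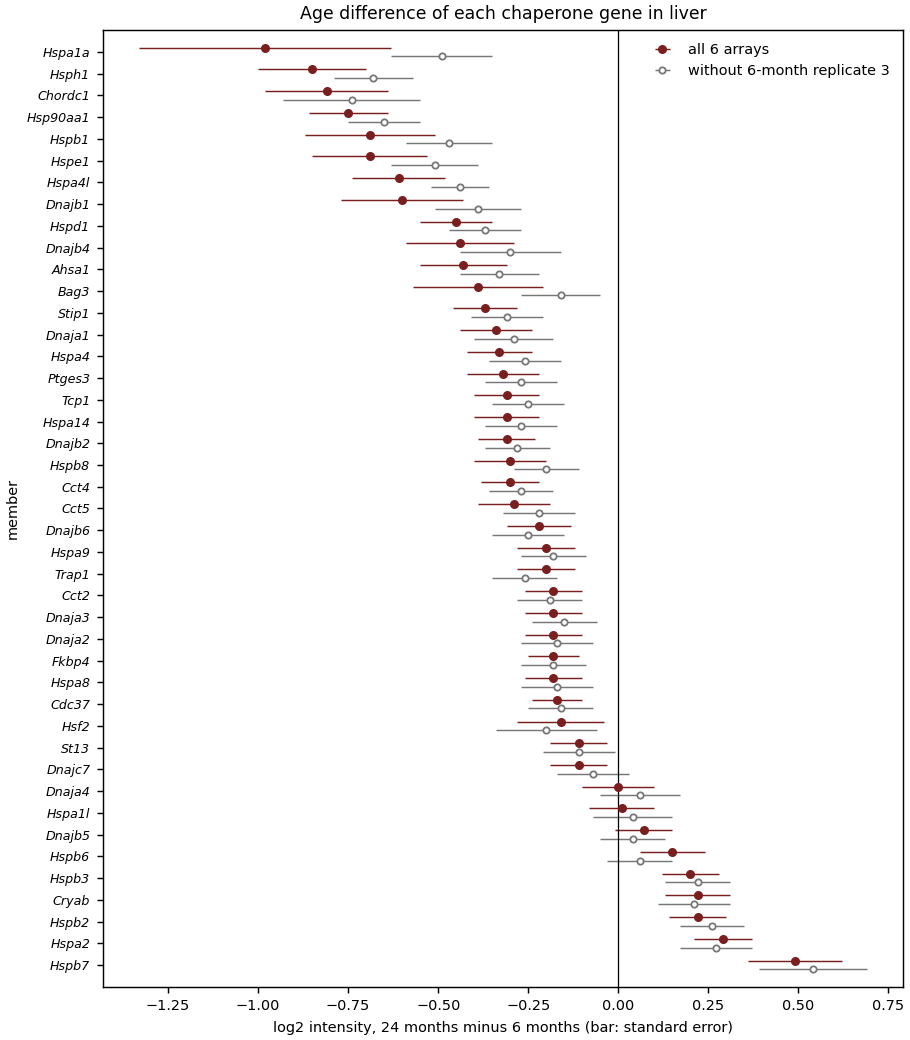
Log2 difference, 24 months minus 6 months, of each of the 43 measured members in liver (rows), with standard errors as bars. Filled points use all 6 arrays and open points leave out 6-month replicate 3. The lowest filled point is Hspa1a at -0.98, whose open point is at -0.49, and the highest is Hspb7 at 0.49.

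In quadriceps no member of 43 passed the threshold, where 0.00502% of all genes did. At an unadjusted p under 0.05 in limma 8 members were lower and 3 higher, where 3.26% and 3.8% of all genes were. Chordc1 read 8.22, 8.23 and 8.47 at 24 months, against 8.70, 8.67 and 8.67 at 6 months (difference -0.37, adjusted p = 0.558). Hsph1 read 8.52, 8.57 and 8.44 at 24 months, against 8.77, 8.74 and 9.09 at 6 months (difference -0.36, adjusted p = 0.572). Ptges3, the HSP90 co-chaperone p23, read 10.23, 10.18 and 10.09 at 24 months, against 10.39, 10.38 and 10.45 at 6 months (difference -0.24, adjusted p = 0.572). Other probe sets of Ptges3 gave differences of -0.26 and -0.11. In these 3 genes the ages did not overlap, which leaving out the third 6-month array could not change. With all arrays 8 members lay wholly lower and 3 wholly higher at 24 months, where 5.33% and 6.69% of all genes did. Among J-domain genes, Dnajb2 read 8.43, 8.47 and 8.44 at 24 months, against 8.55, 8.64 and 8.78 at 6 months (difference -0.21, adjusted p = 0.647). Dnaja1 read 8.25, 8.32 and 8.42 at 24 months, against 8.43, 8.63 and 9.07 at 6 months (difference -0.38, adjusted p = 0.667). Dnajc7, a J-domain protein that binds HSP70 and HSP90, ran the other way, at 9.08, 9.12 and 9.16 at 24 months, against 9.02, 8.94 and 8.89 at 6 months (difference 0.17, adjusted p = 0.672).

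In quadriceps, leaving out the third 6-month array changed the differences of some inducible genes more than the median over members. For Hspa1a this was built in, since the array was singled out by it. Over the 43 members the median difference was -0.05 with all arrays and -0.01 without the third, and over all genes it was 0.01 in both. The difference of Hspa1a was -0.88 with all arrays (adjusted p = 0.798) and -0.07 without the third, that of Hsp90aa1 was -0.51 and -0.23, and that of Dnajb1 was -0.35 and 0.08. Hspb7 differed by 0.08 with all arrays and by 0.57 without the third, and neither passed the threshold. Besides the chaperones, that array was high in slow and oxidative fibre genes, whose mean over 10 genes was 9.77 there, against 7.19 and 7.71 in the other 6-month arrays and 7.87 to 8.54 at 24 months. It was also high in immediate early genes (8.46, with 7.96 and 7.98 in the other 6-month arrays) and low in adipocyte genes (7.55, with 8.42 and 8.50). The part of these differences in the members' values was not tested.

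Hspb7 ran with the fibre genes across arrays of both muscles. Cryab did so most closely in quadriceps, and Hspb3 and Hspb8 did not. These patterns were read from the array values and were not tested. Hspb7 in quadriceps read 11.35, 11.74 and 11.21 at 24 months, against 10.49, 11.24 and 12.33 at 6 months, and the fibre genes averaged 8.37, 8.54 and 7.87 at 24 months, against 7.19, 7.71 and 9.77 at 6 months. In gastrocnemius Hspb7 read 11.98, 11.54, 11.73 and 10.70 at 24 months, against 11.42, 11.29, 11.62 and 10.20 at 6 months. The fibre genes there averaged 8.74, 8.70, 8.69 and 7.45 at 24 months, against 8.52, 8.21, 8.94 and 7.59 at 6 months. The fourth array of each age was thus the lowest in both measures. Cryab, the alpha-B crystallin of lens and muscle, ordered the 6 quadriceps arrays as the fibre genes did, at 12.27, 12.29 and 12.20 at 24 months, against 12.00, 12.17 and 12.44 at 6 months. Hspb3 had its lowest quadriceps value, 8.39, on the array with the highest fibre gene mean, and its highest gastrocnemius value, 7.83, on the array with the lowest. Hspb8 read 10.74 to 10.77 over the 6-month gastrocnemius arrays. The J-domain gene Dnaja4 was lowest in the same gastrocnemius arrays as Hspb7, at 8.18 in the fourth array at 24 months and 8.13 in the fourth at 6 months, with 8.38 to 8.85 in the others. Hspb6, Bag3 and Hspa1a were lowest there too, at 9.43, 9.80 and 6.05 at 24 months and 9.50, 9.82 and 6.01 at 6 months. Cryab read 9.25 and 9.18 on these arrays, the lowest of each age, while Chordc1 was highest there, at 9.34 and 9.18. In quadriceps Hspb6 read 13.64, 13.82 and 13.51 at 24 months, against 13.52, 13.61 and 13.82 at 6 months. In heart, where fibre genes kept between 9.59 and 9.66, Hspb7 kept between 12.69 and 12.83. Fewer fibres of a type and less RNA per fibre cannot be told apart in whole tissue.

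**Figure D4:**
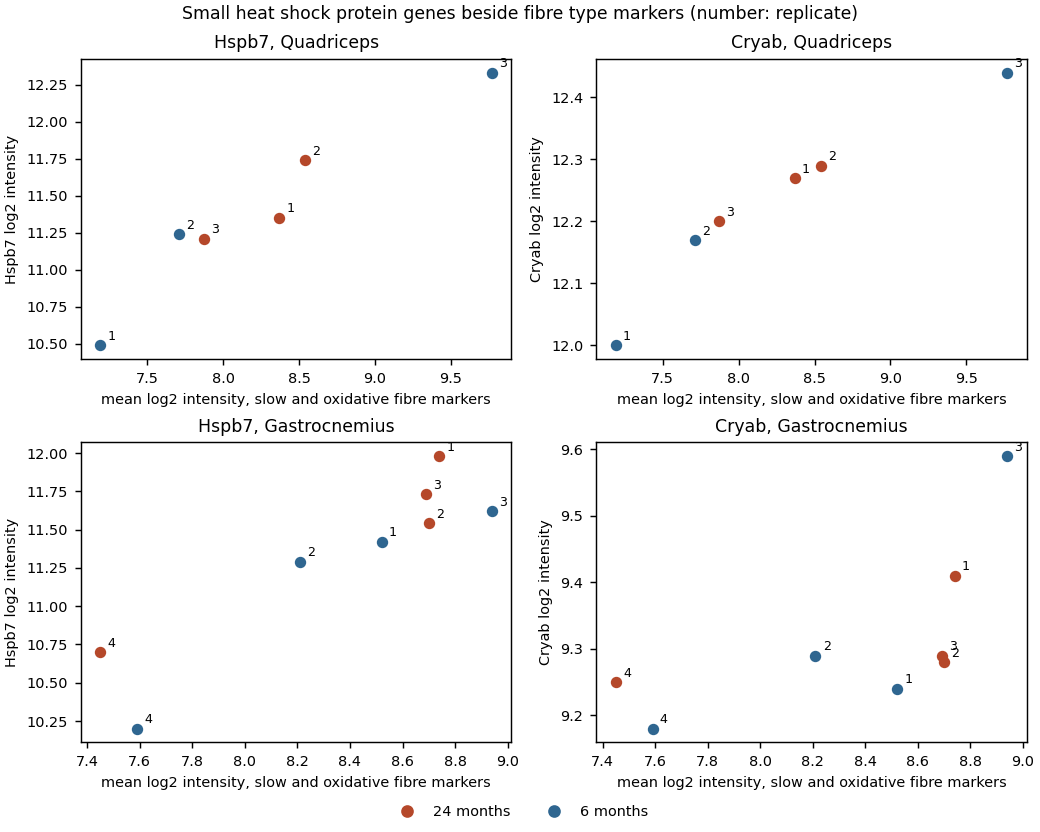
Log2 intensity of Hspb7 and Cryab (vertical axes) against the mean log2 intensity of 10 slow and oxidative fibre genes (horizontal axes) on each quadriceps array (top) and gastrocnemius array (bottom). Points are single arrays, coloured by age and numbered by replicate. The lowest Hspb7 values in gastrocnemius, 10.70 at 24 months and 10.20 at 6 months, are at the lowest fibre gene means, and the vertical axes do not start at 0.

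In heart no member of 42 passed the threshold, where 0.00665% of all genes did, and 4 lower and 0 higher members had an unadjusted p under 0.05 in limma (2.1% and 3.89% of all genes). Fkbp4, the HSP90 co-chaperone of steroid receptors, read 9.39, 9.36, 9.23 and 9.37 at 24 months, against 9.48, 9.58, 9.55 and 9.54 at 6 months (difference -0.20, adjusted p = 0.408). Hspa4l read 7.35, 7.29, 7.37 and 7.45 at 24 months, against 7.47, 7.53, 7.54 and 7.48 at 6 months (difference -0.14, adjusted p = 0.658). The ages did not overlap in these 2 members, where 1.36% of all genes were wholly lower at 24 months, and no member was wholly higher, where 1.94% of all genes were. Hsph1 read 7.21, 7.33, 7.11 and 7.37 at 24 months, against 7.35, 7.53, 7.89 and 7.37 at 6 months (difference -0.28, adjusted p = 0.799), and its difference was -0.16 without the third 6-month array. Ahsa1, which speeds the ATPase of HSP90, read 7.63, 7.66, 7.60 and 7.72 at 24 months, against 7.75, 7.81, 7.85 and 7.69 at 6 months (difference -0.12, adjusted p = 0.794). The ages overlapped in both. Hspa14, an HSP70 of the ribosome, read 6.05, 5.97, 6.20 and 6.13 at 24 months, against 6.17, 6.22, 6.19 and 6.21 at 6 months (difference -0.11, adjusted p = 0.870). Trap1, the mitochondrial HSP90, read 9.26, 9.19, 9.22 and 9.29 at 24 months, against 9.33, 9.34, 9.28 and 9.35 at 6 months (difference -0.09, adjusted p = 0.871). The ages overlapped for these genes as well. All differences over the 42 members in heart lay between -0.28 and 0.10, with a median of -0.05 (0.01 over all genes), and between -0.20 and 0.17 without the third array.

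In gastrocnemius no member of 42 passed the threshold either, where 0.00998% of all genes did, and 6 lower and 5 higher members had an unadjusted p under 0.05 in limma (9.05% and 7.44% of all genes). Fkbp4 read 8.43, 8.42, 8.59 and 8.39 at 24 months, against 8.74, 8.62, 8.80 and 8.75 at 6 months (difference -0.27, adjusted p = 0.111), and passed in a joint fit with heart (adjusted p = 0.0231), where 2.76% of all genes passed. Hspb8, which works with Bag3 in the removal of damaged muscle proteins, read 10.57, 10.39, 10.68 and 10.39 at 24 months, against 10.74, 10.76, 10.77 and 10.74 at 6 months (difference -0.24, adjusted p = 0.153). Ahsa1 read 7.78, 7.73, 7.92 and 7.74 at 24 months, against 7.90, 7.99, 8.07 and 8.03 at 6 months (difference -0.20, adjusted p = 0.162). Among these, the ages overlapped for Ahsa1 alone. Hspa4, an HSP110 gene, was higher on all 24-month arrays, at 9.65, 9.65, 9.58 and 9.61, against 9.47, 9.46, 9.43 and 9.46 at 6 months (difference 0.17, adjusted p = 0.126). Hsp90aa1 read 8.49, 8.24, 8.29 and 8.25 at 24 months, against 8.08, 8.08, 8.15 and 8.18 at 6 months (difference 0.20, adjusted p = 0.193). Dnajc7 read 8.48, 8.38, 8.44 and 8.45 at 24 months, against 8.33, 8.31, 8.27 and 8.31 at 6 months (difference 0.13, adjusted p = 0.197). In all, 3 members lay wholly lower and 5 wholly higher at 24 months, where 4.78% and 3.86% of all genes did. The median over the members was -0.03 with all arrays and 0.03 after quantile normalization or cyclic loess, so its direction rests on the scaling.

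**Figure D5:**
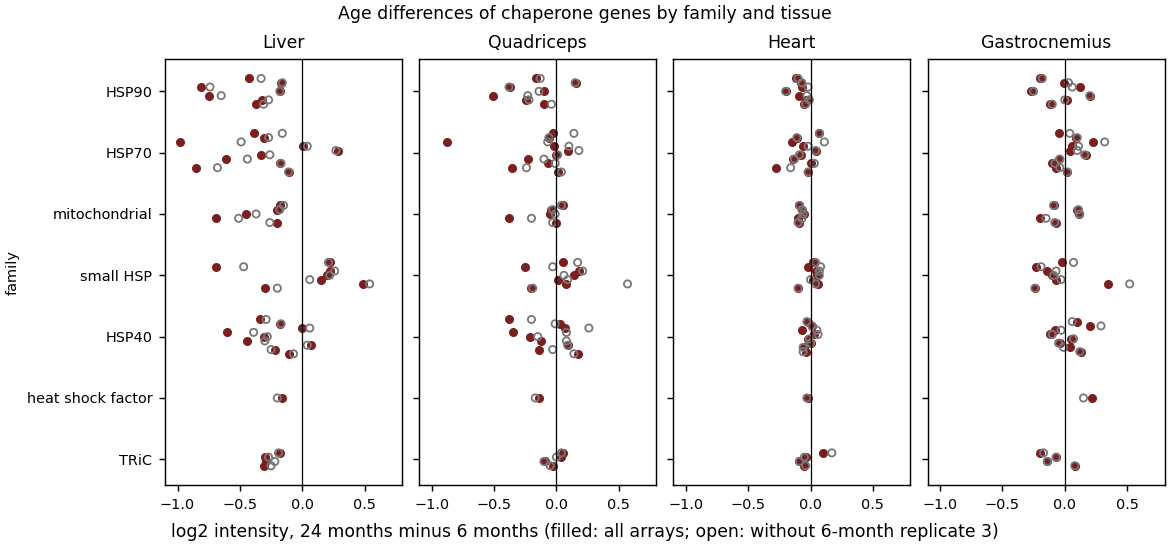
Log2 difference, 24 months minus 6 months (horizontal axes), of every measured member by family (rows) in the 4 tissues (panels). Filled points use all arrays and open points leave out the 6-month array numbered 3. Points spread from -0.98 to 0.49 in liver and from -0.28 to 0.10 in heart.

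Set side by side, 10 of the 42 members measured in every tissue had a lower mean at 24 months in all 4: Ahsa1, Cct5, Dnajb1, Fkbp4, Hspa4l, Hspb1, Hspb8, Hspe1, Hsph1 and Stip1. Over the 18974 genes measured in every tissue this was 6.94%. Without the 6-month arrays numbered 3, 11 members had it, where 7.61% of all genes did; Dnajb1 and Hspb1 were no longer among them, and Cct4, Dnajb6 and Trap1 were. Hspa2 and Hspb7 had a higher mean at 24 months in all 4 tissues, and without those arrays so did Cryab and Dnaja4 (11.9% and 13.5% of all genes). None of the age differences of these genes passed the test, and since arrays of different tissues may come from the same mice the tissues are not known to be independent. The share lower in all 4 tissues was not counted among genes of like level. Between the members' quartiles of level, 77.9%, 50.4%, 53.5% and 63.8% of genes were lower in liver, quadriceps, heart and gastrocnemius. Over all genes these shares were 45.1%, 46.4%, 43.2% and 44.0%.

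Whether the age differences themselves differed between tissues was tested within each array type. No member passed for liver minus quadriceps, where 0.0151% of all genes did, or for heart minus gastrocnemius, where 0.595% did. Leaving out liver 24-month replicate 3 brought Cdc37 and Chordc1 past the threshold (7.34% of all genes), and leaving out heart 24-month replicate 4 brought Hspa4 (0.695%). The smallest p between liver and quadriceps belonged to Cdc37, the HSP90 co-chaperone of kinases, with age differences of -0.17 in liver and 0.16 in quadriceps (adjusted p = 0.112). Next came the TRiC subunit Cct4, at -0.30 in liver and 0.04 in quadriceps (adjusted p = 0.126), and Hspd1, at -0.45 in liver and -0.05 in quadriceps (adjusted p = 0.143). Between heart and gastrocnemius they were Hspa4, at -0.08 in heart and 0.17 in gastrocnemius (adjusted p = 0.113), Hspa14, at -0.11 and 0.09 (adjusted p = 0.186), and Hsp90aa1, at -0.09 and 0.19 (adjusted p = 0.239). Hspa4 passed after cyclic loess (adjusted p = 0.0398). A liver difference in the members was thus not shown to differ from that of quadriceps.

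Levels differed between tissues far more than between ages. In liver, set against quadriceps, 17 of 43 members were higher and 20 lower, where 47.7% and 29.5% of all genes were (77.2% in either direction). The muscle-type small heat shock genes led the lower ones. Hspb7 averaged 6.12 ± 0.32 in liver and 11.39 ± 0.61 in quadriceps (SD, n = 6 each), a difference of -5.27, and Cryab averaged 7.34 ± 0.14 in liver and 12.23 ± 0.15 in quadriceps, a difference of -4.89. Hspb6, Hspb2 and the HSP70 gene Hspa1l followed at -3.87, -2.70 and -2.68. Higher in liver were Dnaja1, at 10.47 ± 0.22 in liver and 8.52 ± 0.30 in quadriceps (difference 1.95), Hsp90aa1, at 10.38 ± 0.43 in liver and 8.49 ± 0.42 in quadriceps (difference 1.89), Hspa4l (1.34), Hspd1 (1.31) and Dnajb1 (1.28). These 10 kept their direction under quantile normalization, median centring and cyclic loess. The sizes depend on the probe set chosen. A second probe set averaged 9.30 in liver and 6.71 in quadriceps for Dnaja1, and 9.87 and 8.94 for Hspd1.

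In heart, set against gastrocnemius, 21 of 42 members were higher and 13 lower, where 66.6% and 16.2% of all genes were (82.8% in either direction). Hspa4l averaged 7.44 ± 0.09 in heart and 5.53 ± 0.06 in gastrocnemius (SD, n = 8 each), a difference of 1.91. Hspb7 averaged 12.75 ± 0.05 in heart and 11.31 ± 0.58 in gastrocnemius (difference 1.44), and Fkbp4, Hsp90aa1 and Bag3 were higher by 0.84, 0.78 and 0.75. Lower in heart were Hspb3, at 6.35 ± 0.06 in heart and 7.71 ± 0.12 in gastrocnemius (difference -1.36), Hspb6 (-1.35), Chordc1 (-1.24), Hsf2, a heat shock factor of development (-1.20), and Hsph1 (-1.20). These 10 also kept their direction under the other scalings. The counts did not: the median over all genes was 0.26 in heart minus gastrocnemius as deposited and -0.01, -0.05 and 0.00 after quantile normalization, median centring and cyclic loess. Members then split into 18 higher and 15 lower, 10 and 25, and 18 and 17, and the share of higher genes among all called went to 48.5%, 41.6% and 49.6%, with 80.5% as deposited. For liver minus quadriceps the members split into 10 higher and 25 lower, 16 and 23, and 17 and 22, and higher genes made up 45.3%, 48.4% and 50.7% of all called, with 61.7% as deposited.

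Genes next to the members in the same pathways were read from lists of their own. In liver 45.1% of all genes, and 77.9% of those between the members' quartiles of level, had lower values at 24 months. These shares stand beside each liver count that follows. Of 18 chaperones of the endoplasmic reticulum, 17 were lower (median -0.38), and 1 passed, where 0.326% of all genes did. This was Pdia6, a disulfide isomerase. It fell to 8.92, 8.90 and 8.96 at 24 months, against 9.39, 9.46 and 9.36 at 6 months (difference -0.48, adjusted p = 0.0493). Without 6-month replicate 3 its difference was -0.50 and it did not pass. Of the other TRiC subunits and prefoldins, 10 of 11 had lower values in liver (median -0.30) and none passed; Cct3 and Cct8 differed by -0.51 and -0.40 (adjusted p = 0.0543 and 0.0569). Other HSP70 and HSP90 co-chaperones were mixed, with 17 of 27 lower (median -0.03) and none past the threshold. Among them Fkbp5, an HSP90 co-chaperone induced by glucocorticoids, read 7.87, 7.99 and 8.11 at 24 months, against 7.57, 7.50 and 7.42 at 6 months (difference 0.49, adjusted p = 0.0543). Of 7 other heat-induced genes 4 were lower in liver and none passed, and Zfand2a, a target of Hsf1, differed by -0.40 with all arrays and by -0.23 without the third. No gene of these 4 lists passed in quadriceps, heart or gastrocnemius. In gastrocnemius, 13 of 16 chaperones of the endoplasmic reticulum had higher values at 24 months (median 0.08), where 44.0% of all genes were lower. Canx differed by 0.30 and Hspa5 by 0.38 (adjusted p = 0.0734 for both).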

How the data were processed

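RNA from liver, quadriceps, heart and gastrocnemius was measured on whole-transcript Affymetrix arrays, 1 array per sample. The authors deposited log2 values in 2 tables, normalized with RMA (background correction, quantile normalization and probe summary) per the submitters' processing notes; which arrays were normalized together and the genome build are not given in the sources used here. Probe sets with 1 gene symbol were kept and symbols were updated through RefSeq GRCm38.p6: 21797 of 28944 probe sets in the liver and quadriceps table and 30604 of 65956 in the other. The probe set of highest mean stood for a gene. Values carry no depth, so precision rests on the number of arrays.

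Age differences, 24 months minus 6 months, were fitted per tissue with limma 3.58.1 (R 4.3.3, lmFit and eBayes), with Benjamini-Hochberg adjustment over all genes of a table and a threshold of 0.05. Tissue contrasts and differences of age effects came from 1 fit of the 4 groups of a table. Dim genes stayed in. The procedure was tested on simulated data. Alternatives were quantile normalization, median centring, cyclic loess, leaving out dim genes, averaging probe sets, an intensity trend with robust prior, a joint fit, the replicate number as a block and leaving out each array; leaving out the 6-month arrays numbered 3 in both tissues of a table was added after the data were seen.

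The members and gene lists were chosen with earlier results of these data known. Array values are given for Hspa1a and, per tissue, the 6 members of smallest p; for tissue levels the 5 members of largest difference each way, for differences of age effects the 3 of smallest p, and for other lists the genes past the threshold or the 2 of smallest p. Members named beyond this, such as Hspb7, Cryab, Dnajb1, Dnaja4 and Bag3, and the marker values beside them, were picked after their values were seen. No array pair was a duplicate.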

Additional observations from a re-analysis of the deposited data

Results flagged for a closer look

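With 4 arrays per group in heart and gastrocnemius, a member was singled out when 1 array lay far from the other 3 relative to the range of its group. This happened in 9 of 168 groups, or 5.36%, where chance gives about 1 in 20. In the 24-month heart group 5 of 42 members were singled out, each for replicate 4. That array was the highest for the HSP110 gene Hspa4 (9.64, with 9.45 as the nearest value), the TRiC subunit Cct4 (7.49, nearest 7.34), the HSP70-interacting protein gene St13 (8.64, nearest 8.48) and the J-domain gene Dnaja2 (10.40, nearest 10.19), and the lowest for the TRiC subunit Cct2 (10.26, nearest 10.43). Without it the age difference of Hspa4 differed between heart and gastrocnemius past the threshold, as given above. In the 6-month heart group replicate 3 stood high for Dnajb1 (7.43, nearest 6.97) and Dnajb2 (7.79, nearest 7.69). In the 6-month gastrocnemius group replicate 3 stood high for Hspb1 (9.08, nearest 8.89), and replicate 1 was the lowest for Cct2 (10.25, nearest 10.65). Groups of 3 arrays, as in liver and quadriceps, were not examined this way.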

How the results depend on the processing

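The number of members past the threshold in liver was 1 as deposited, 0 after quantile normalization, 19 after median centring, 18 without dim genes, 19 with an intensity trend and robust prior, 18 in the joint fit and 0 with the replicate number as a block; leaving out each array gave 0 to 19. The median over members in liver was -0.17 after quantile normalization or cyclic loess and -0.38 after median centring, and -0.30 to -0.22 without single arrays. In gastrocnemius 1 member passed in the joint fit (2.76% of all genes) and 0 without any single array; the median turned to 0.03 under quantile normalization and under cyclic loess, and ran from -0.05 to 0.01 without single arrays. Without single arrays the count was 0 in quadriceps and heart. For the age effect of heart minus gastrocnemius 1 member passed after cyclic loess (0.373% of all genes) and 1 without dim genes (2.85%), and 0 to 1 without single arrays; for liver minus quadriceps 0 to 2. Tissue level counts ran, without single arrays, from 35 to 38 for liver minus quadriceps and from 33 to 36 for heart minus gastrocnemius; median centring and cyclic loess each gave 39 and 35. The difference of Hspa1a in heart turned to 0.11 without 6-month replicate 3, which was singled out by Hspa1a, and ran from -0.28 to 0.11 over single arrays. The cause of these changes was not tested. In none of the comparisons fitted did every same-numbered pair correlate above 0.1, so the numbers were not taken as pairs: between the ages r was -0.02 to 0.05 in liver, -0.04 to 0.16 in quadriceps, -0.22 to -0.00 in heart and -0.04 to 0.30 in gastrocnemius. Between liver and heart at 24 months, which were not compared, it was 0.13 to 0.25, and between liver and gastrocnemius 0.05 to 0.28. In the tissues compared it was, at 24 months, 0.01 to 0.19 between heart and gastrocnemius and -0.11 to 0.06 between liver and quadriceps. At 6 months it was -0.03 to 0.04 and -0.02 to 0.01. Arrays of different ages cannot share a mouse, and these r cannot tell whether same-numbered arrays of different tissues do. Hsp90aa1 in liver had an adjusted p of 0.061 with the block. Few arrays per age limit every comparison.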

Other observations

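Genes outside the chaperone lists were read on the same arrays. The cold-inducible RNA-binding protein genes Rbm3 and Cirbp, which rise when cells are cooled, had higher values at 24 months in both leg muscles. In quadriceps Rbm3 read 11.00, 10.75 and 10.73 at 24 months, against 10.47, 10.49 and 10.16 at 6 months (difference 0.45, adjusted p = 0.567), and Cirbp differed by 0.35. In gastrocnemius Rbm3 read 8.50, 8.28, 8.34 and 8.58 at 24 months, against 8.13, 8.18, 7.95 and 8.05 at 6 months (difference 0.35, adjusted p = 0.111), and Cirbp differed by 0.26 (adjusted p = 0.163). The ages did not overlap for either gene in either muscle. Over all genes 6.69% in quadriceps and 3.86% in gastrocnemius lay wholly higher at 24 months. In liver and heart the differences of both genes lay between -0.01 and 0.04. None passed the threshold.

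Clock and immediate early genes also differed in places without passing it. In heart 10 of 14 clock and clock output genes had higher values at 24 months, 7 of them without overlap between the ages (1.94% of all genes), with Dbp at 0.82 and Per3 at 0.28 (adjusted p = 0.113 for both). In liver 12 of 14 were higher, with Per1 at 0.61 (adjusted p = 0.0646). Immediate early genes were lower in 16 of 19 in gastrocnemius, with Dusp1 at -0.47 (adjusted p = 0.171). Over all genes 43.2% were lower in heart, 45.1% in liver and 44.0% in gastrocnemius. The times of day at which tissues were taken are not given in the sources used here.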
